A study of Capra hircus with 6 samples.

Results

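The genes described here are AGRP, NPY, POMC and CARTPT, which encode the main feeding peptides of the arcuate nucleus, and PCSK1 and PCSK2, which encode convertases that cut peptide precursors. They are 6 of the 20225 genes in the mRNA table of goat hypothalamus, and were found by their goat gene symbols. They were chosen by name when their FPKM in these libraries was already known from an earlier analysis, so their levels, stage differences and correlations are given as a description with no test. Each level is the FPKM (fragments scaled by transcript length and by the mapped fragments of a library) summed over all transcripts of a gene, and 7 transcripts belonged to the 6 genes.

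Hypothalamus was taken from 3 pubertal female Anhuai goats of 4.5 to 5 months and 3 prepubertal ones of 2.5 to 3 months, kept under the same conditions, and each goat gave 1 strand-specific library from total RNA without ribosomal RNA. Puberty was judged from oestrus detection with male goats and from the vulva, and the pubertal goats, which were heavier, were killed in the late follicular phase. Age, body weight, ovarian phase and stage changed together, so they cannot be told apart, and the feeding state at sampling is not given in the sources used here. As the files hold FPKM and no counts of reads, the depth of a value is unknown, and p-values measure the spread between 3 goats per stage.

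Arcuate neurons that make AGRP and NPY promote feeding, and neighbouring neurons that make POMC and CARTPT restrain it. AGRP blocks melanocortin receptors, NPY acts on its own family of receptors, and POMC is cut into the melanocortin α-MSH, which activates the receptors that AGRP blocks, and into β-endorphin and ACTH. PCSK1 and PCSK2 make these cuts at paired basic residues in many neurons and endocrine cells, and outside the brain POMC is the chief product of corticotrophs and melanotrophs of the pituitary. Leptin, ghrelin, insulin and oestradiol act on these neurons, which pass signals of energy reserve to the neurons that secrete GnRH.

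In mean level, POMC stood first with 107 FPKM over the 6 libraries, followed by NPY with 77.4, AGRP with 58.7, CARTPT with 42.1, PCSK2 with 28.0 and PCSK1 with 24.5 FPKM. This order did not hold from goat to goat. POMC was above NPY in 3 of 6 libraries, NPY above AGRP in 5, AGRP above CARTPT in 2, CARTPT above PCSK2 in 6, and PCSK2 above PCSK1 in 4. Among neighbours in the order, the mean log2 ratio of FPKM exceeded its SD over the libraries for CARTPT over PCSK2 alone (0.56 ± 0.33, SD, n = 6). It was -0.05 ± 2.01 for POMC over NPY, 0.81 ± 0.86 for NPY over AGRP, -0.30 ± 2.0 for AGRP over CARTPT and 0.19 ± 0.22 for PCSK2 over PCSK1 (SD, n = 6 each), so these neighbours did not differ beyond their spread. The first place changed between libraries: it was held by CARTPT in pubertal replicate 1, by POMC in pubertal replicates 2 and 3, by AGRP in prepubertal replicate 1 and by NPY in prepubertal replicates 2 and 3.

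**Figure D1:**
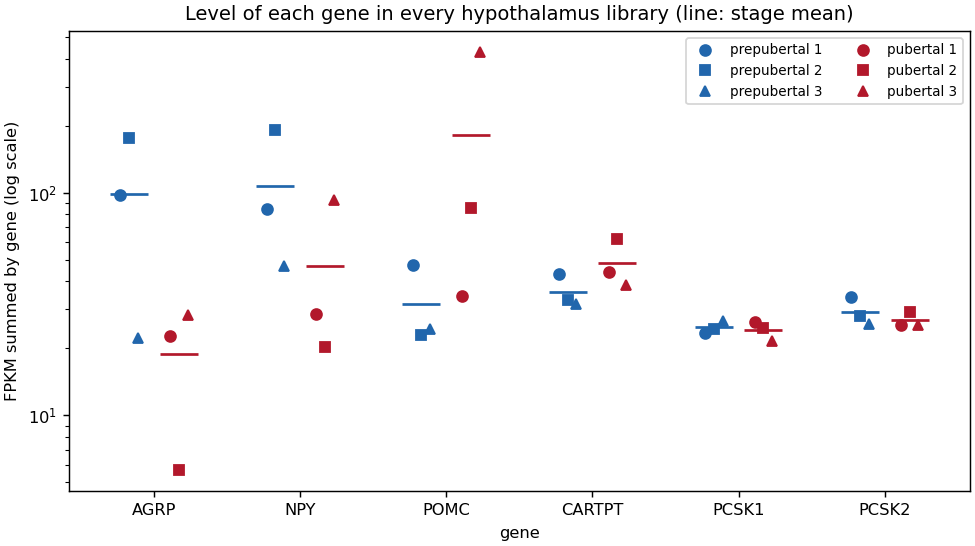
FPKM summed by gene in each of the 6 libraries, on a log axis, for the 4 peptide genes and the 2 convertase genes. Each point is 1 goat, blue for prepubertal and red for pubertal, and a short line is the mean of a stage. AGRP spans 5.69 to 175.8 FPKM and POMC 22.9 to 428.6 FPKM, whereas PCSK1 lies between 21.5 and 26.5 FPKM in all 6 libraries.

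AGRP, the melanocortin antagonist, measured 22.7, 5.69 and 28.3 FPKM across the pubertal libraries and 97.5, 175.8 and 22.3 FPKM across the prepubertal ones, in the order of replicates 1, 2 and 3 that is kept below. Prepubertal replicates 1 and 2 were high, pubertal replicate 2 was low, and prepubertal replicate 3 lay among the pubertal libraries, so the stages overlapped. The pubertal mean of 18.9 ± 11.8 FPKM stood against a prepubertal mean of 98.5 ± 76.8 FPKM (SD, n = 3 each). On the log2(FPKM + 1) scale, the scale of all differences below, the pubertal mean was lower, with a difference of -2.15 (standard error 1.09). In bulk tissue, fewer cells of a type and less RNA per cell cannot be told apart. The difference was -1.49 without pubertal replicate 2 and -1.52 without prepubertal replicate 2. In the RefSeq gene table (ARS1.2) the span of AGRP overlaps that of FAM65A. FAM65A had between 3.0 and 5.21 FPKM, with its highest value in pubertal replicate 3.

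NPY, the other peptide of these neurons and also made widely in the forebrain, measured 28.6, 20.3 and 92.3 FPKM across the pubertal libraries and 84.1, 192.0 and 47.0 FPKM across the prepubertal ones. Prepubertal replicate 2 had the highest value, as for AGRP, but pubertal replicate 3 exceeded prepubertal replicates 1 and 3. The pubertal mean of 47.1 ± 39.4 FPKM stood against a prepubertal mean of 107.7 ± 75.3 FPKM (SD, n = 3 each), a difference of -1.25 (standard error 0.87). The size of this difference rested on single goats: it was -0.72 without prepubertal replicate 2, -0.82 without pubertal replicate 2 and -1.88 without pubertal replicate 3.

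NPY was the only gene of the 6 with more than 1 transcript, and its transcripts of 539 nt and 544 nt are nearly equal in length. The transcript of 539 nt, XM_005679293.2, measured 10.1, 20.2 and 83.0 FPKM across the pubertal libraries and 84.1, 192.0 and 47.0 FPKM across the prepubertal ones. The transcript of 544 nt, XM_013963349.1, reached 18.4 FPKM in pubertal replicate 1 and 9.32 FPKM in pubertal replicate 3, but no more than 0.00594 FPKM in each of the other 4 libraries. It therefore held 64.6% of NPY in pubertal replicate 1 and 10.1% in pubertal replicate 3, against at most 0.0293% elsewhere. With the transcript of 539 nt alone, the difference of NPY between the stages was -1.77. How reads were divided between these transcripts was not tested.

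**Figure D2:**
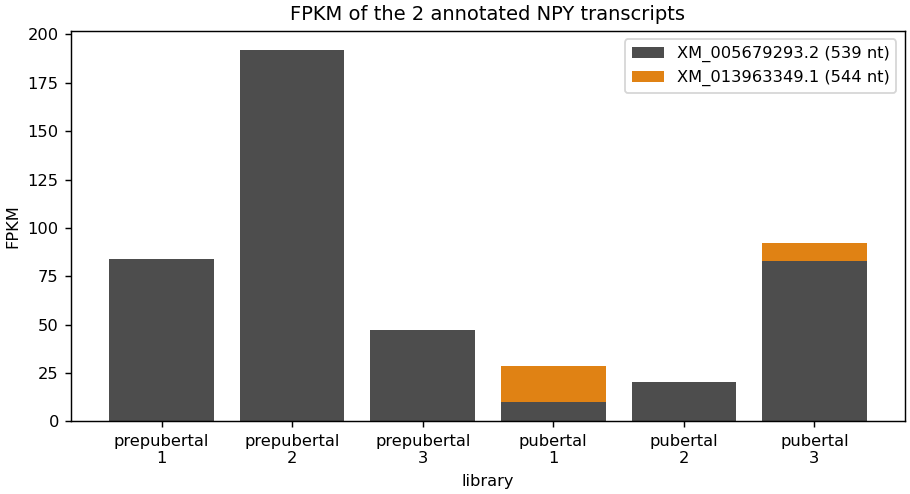
FPKM of the 2 annotated NPY transcripts in each library, stacked so that the height of a bar is the NPY level of 1 goat. The transcript of 544 nt (orange) is visible in pubertal replicates 1 and 3, where it held 64.6% and 10.1% of NPY.

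POMC, the precursor of α-MSH and β-endorphin, measured 34.4, 85.1 and 428.6 FPKM across the pubertal libraries and 47.4, 22.9 and 24.3 FPKM across the prepubertal ones. Pubertal replicate 3 stood far above the other libraries, and prepubertal replicate 1 lay above pubertal replicate 1, so the stages overlapped. The pubertal mean of 182.7 ± 214.4 FPKM stood against a prepubertal mean of 31.6 ± 13.8 FPKM (SD, n = 3 each), a difference of 1.83 (standard error 1.10). Without pubertal replicate 3 it was 0.84. A pubertal library exceeded a prepubertal one in 8 of 9 pairings.

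CARTPT, which encodes the anorexigenic CART peptides, measured 44.0, 62.0 and 38.7 FPKM across the pubertal libraries and 43.1, 32.9 and 31.8 FPKM across the prepubertal ones. Pubertal replicate 2 was the highest, and only prepubertal replicate 1 reached into the pubertal range. The means were 48.2 ± 12.2 and 35.9 ± 6.23 FPKM (SD, n = 3 each), a difference of 0.40 (standard error 0.24), and without pubertal replicate 2 it was 0.21.

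PCSK1, the convertase that makes the first cuts in POMC, measured 26.3, 24.7 and 21.5 FPKM across the pubertal libraries and 23.4, 24.6 and 26.5 FPKM across the prepubertal ones. The stages lay over each other, with a difference of -0.04 (standard error 0.10) that was 0.04 without pubertal replicate 3 and 0.01 without prepubertal replicate 3. PCSK2, which cuts further to release α-MSH, measured 25.6, 29.1 and 25.4 FPKM across the pubertal libraries and 34.0, 27.8 and 25.8 FPKM across the prepubertal ones. Prepubertal replicate 1 was the highest, the stages overlapped, and the difference of -0.12 (standard error 0.13) was -0.01 without that library, -0.18 without pubertal replicate 2 and -0.20 without prepubertal replicate 3.

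The stages thus overlapped for all 6 genes. Of the 16397 genes with a mean of at least 0.1 FPKM, 9.75% had pubertal and prepubertal libraries that did not overlap, and as the genes were chosen with these values known, nothing is read from a count of 0 among 6.

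The peptide genes and the convertase genes differed in how much they varied between goats of the same stage. The SD of log2(FPKM + 1) within a stage was 1.34 for AGRP, 1.07 for NPY, 1.35 for POMC and 0.29 for CARTPT, but 0.12 for PCSK1 and 0.16 for PCSK2. The median over the 8116 genes with a mean of at least 10 FPKM was 0.13. The SD of AGRP, NPY and POMC was larger than that of 99.8%, 99.7% and 99.8% of these genes, that of CARTPT than 94.2%, and those of PCSK1 and PCSK2 than 38.2% and 64.7%. The highest library was 30.9 times the lowest for AGRP, 18.7 times for POMC and 9.48 times for NPY, compared with 1.95 times for CARTPT, 1.34 for PCSK2 and 1.23 for PCSK1. Within pubertal and prepubertal goats this ratio was 12.5 and 2.07 for POMC, 4.97 and 7.88 for AGRP, and 4.56 and 4.08 for NPY. The SD of POMC thus came mainly from the pubertal goats, where replicate 3 stood far above the others. As the genes were chosen with these values known, their place among all genes is a description. The transcripts of AGRP (455 nt), NPY and POMC (739 nt) are also shorter than those of CARTPT (917 nt), PCSK2 (1252 nt) and PCSK1 (5033 nt), and the part of length in this spread was not tested.

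Next, the genes were compared with each other over the 6 libraries. AGRP and NPY varied together, with a Pearson r of 0.90 and a Spearman rho of 0.89 on log2(FPKM + 1). After subtracting the stage means r was 0.85, and without prepubertal replicate 2 and pubertal replicate 2, the libraries farthest from the median of AGRP, it was 0.59 over 4 libraries. With the NPY transcript of 539 nt alone it was 0.77. Many genes followed either gene as closely over so few libraries: of 14080 other genes with a mean of at least 1 FPKM, NPY ranked 82 by its r with AGRP, and AGRP ranked 50 by its r with NPY.

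AGRP and POMC, the antagonist and the precursor of the agonist, had an r of -0.33 and a rho of -0.31. The r was -0.61 without pubertal replicate 3, and 0.21 with the stage means subtracted. NPY and POMC had an r of -0.02, which was -0.62 without pubertal replicate 3 and 0.56 with the stage means subtracted. The sign for AGRP and POMC thus turned when the stage means were subtracted. For NPY and POMC the r over all libraries was too small to give a sign, and was 0.02 with quantile normalization. Pubertal replicate 3 held both high NPY and high POMC.

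CARTPT had an r of 0.31 with POMC, 0.97 without pubertal replicate 3, and an r of -0.64 with AGRP and -0.70 with NPY. Without pubertal replicate 2 and prepubertal replicate 2 the last relations gave r of 0.46 and -0.04 over 4 libraries. POMC and PCSK1 had the most negative r of the 15 pairs, -0.83 with a rho of -0.54. It was -0.42 without pubertal replicate 3, the library with the most POMC and the least PCSK1. PCSK1 and PCSK2 had an r of -0.20 and a rho of -0.03, but an r of -0.94 without pubertal replicate 3.

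The ratio of POMC to AGRP within a library sets the melanocortin precursor against its antagonist. It was 1.52, 15.0 and 15.2 in pubertal replicates 1, 2 and 3, and 0.487, 0.13 and 1.09 in prepubertal replicates 1, 2 and 3. POMC thus exceeded AGRP in all 3 pubertal libraries and in 1 of 3 prepubertal ones, and the stages did not overlap, although the gap between pubertal replicate 1 and prepubertal replicate 3 was small. The difference in log2 ratio was 3.98 (standard error 1.38), and it lay between 3.17 and 5.04 when each library was left out in turn. The ratio of POMC to NPY was 1.2, 4.2 and 4.64 in pubertal and 0.564, 0.119 and 0.517 in prepubertal replicates 1, 2 and 3, also without overlap. The ratio of NPY to AGRP was 1.26, 3.56 and 3.27 in pubertal and 0.863, 1.09 and 2.11 in prepubertal replicates 1, 2 and 3, and overlapped. The ratios of CARTPT to AGRP and of POMC to CARTPT also overlapped. All these ratios hold the values that chose the genes and carry no test. How often ratios of other gene pairs separate the stages was not computed, so nothing is read from the lack of overlap.

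**Figure D3:**
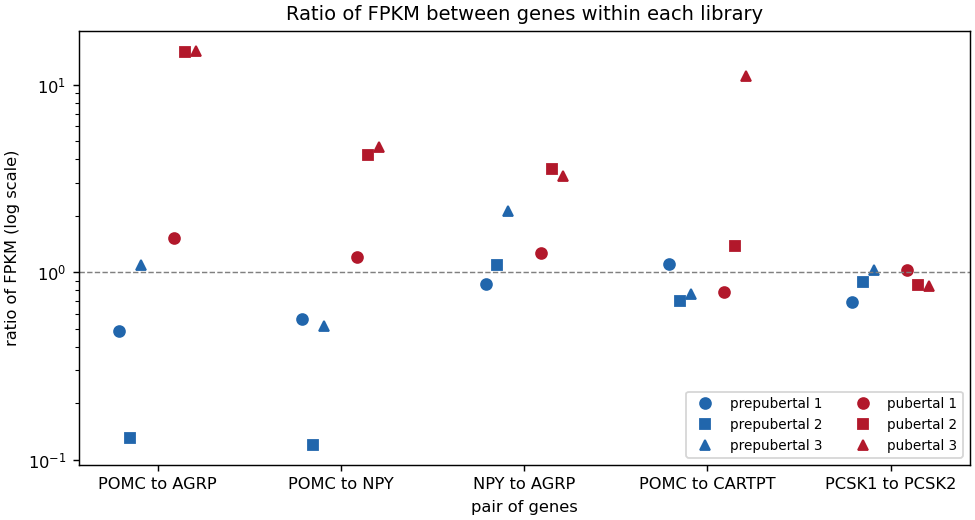
Ratio of FPKM between pairs of genes within each library, on a log axis, with a dashed line at a ratio of 1. Each point is 1 goat, blue for prepubertal and red for pubertal. The pubertal points lie above the prepubertal ones for POMC to AGRP and for POMC to NPY, and overlap for the other pairs.

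The genes most alike in pattern over the 6 libraries, among those with a mean of at least 1 FPKM, were listed for each peptide gene. For AGRP they were HTRA4 (r = 0.99), LOC102168459 (0.98) and ZNF438 (0.98). Of these, LOC102168459 shared the wide range of AGRP, with 3.05, 0.774 and 5.70 FPKM across the pubertal libraries and 9.0, 17.1 and 2.61 FPKM across the prepubertal ones, whereas HTRA4 ran only from 8.24 to 12.8 FPKM. For NPY they were SLC7A2 (0.99), LOC102191099 (0.98) and ZNF527 (0.97). For POMC they were ARAP1 (0.998), FSTL1 (0.997) and IL4R (0.995), and for CARTPT NOL3 (0.99), WDR76 (0.98) and HCRTR1 (0.98), a receptor for orexins. An r above 0.9 was reached by 80 genes with AGRP, 49 with NPY, 305 with POMC and 77 with CARTPT, and with 6 libraries such values are a description. With only the most abundant transcript of each gene, r was -0.27 for NPY and ZNF527, -0.68 for CARTPT and WDR76, and 0.42 for POMC and IL4R. ARAP1, FSTL1 and IL4R all had their highest value in pubertal replicate 3, for FSTL1 44.8 FPKM there and 28.3 to 34.5 FPKM in the other libraries.

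Markers of other hypothalamic nuclei, the pituitary and the choroid plexus were set beside the peptide genes. The hypothalamus label was met by markers of several nuclei: GHRH (15.8 to 30.5 FPKM), SIM1 (3.03 to 4.11), NR5A1 (1.80 to 4.73) and PMCH (673 to 2173) were detected in every library. AVP, the vasopressin gene, was listed at 0 in all 6 libraries, and MBP, a major myelin gene, was listed at 0 in prepubertal replicate 1 and at up to 3333 FPKM elsewhere. A value of 0 in these files can thus stand on an abundant gene and is not read as absence. None of the 6 genes was at 0 in any library.

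The summed FPKM of the 10 other arcuate neuron genes lay between 289.7 and 322.1 in pubertal and between 284.9 and 334.4 in prepubertal libraries. Most of this sum came from SLC17A6, PDYN, GAD2 and TH, with means of 85.8, 63.5, 51.4 and 44.7 FPKM. GHRH, TAC3, KISS1 and ASB4 added little, with means of 21.4, 11.0, 2.18 and 0.259 FPKM. The sum is therefore not read as the arcuate content of a library, which was not tested. Single genes of this list had wider ranges, such as 15.8 to 30.5 FPKM for GHRH and 1.19 to 2.94 FPKM for KISS1. An r above 0.8 with AGRP was found for 4 of the 92 tested genes of all lists, and for 3 of the 79 with a mean of at least 1 FPKM (3.8%), against 2.25% of the 14080 genes with that mean. These 4 genes, 2 of hormone input, 1 arcuate gene and 1 astrocyte marker, are named here after their values were seen. LEPR, the leptin receptor, had an r of 0.93 with AGRP and measured 4.41, 3.07 and 4.74 FPKM across the pubertal libraries and 5.97, 7.07 and 3.16 FPKM across the prepubertal ones. GHSR, the ghrelin receptor, had an r of 0.84 with AGRP and 0.90 with NPY, and reached its highest value, 2.90 FPKM, in prepubertal replicate 2. ASB4, an arcuate gene, had an r of 0.96 and was at only 0.0925 to 0.463 FPKM. SLC1A3, a glutamate transporter of astrocytes, had an r of 0.86 with AGRP and 0.85 with NPY. LEPR, GHSR, ASB4 and SLC1A3 were all highest in prepubertal replicate 2, the library with the most AGRP and NPY, and the median r with AGRP was 0.19 for other arcuate genes, 0.34 for hormone inputs and -0.59 for astrocyte markers. The receptors and the transcription factors of these neurons held 0 such genes.

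**Figure D4:**
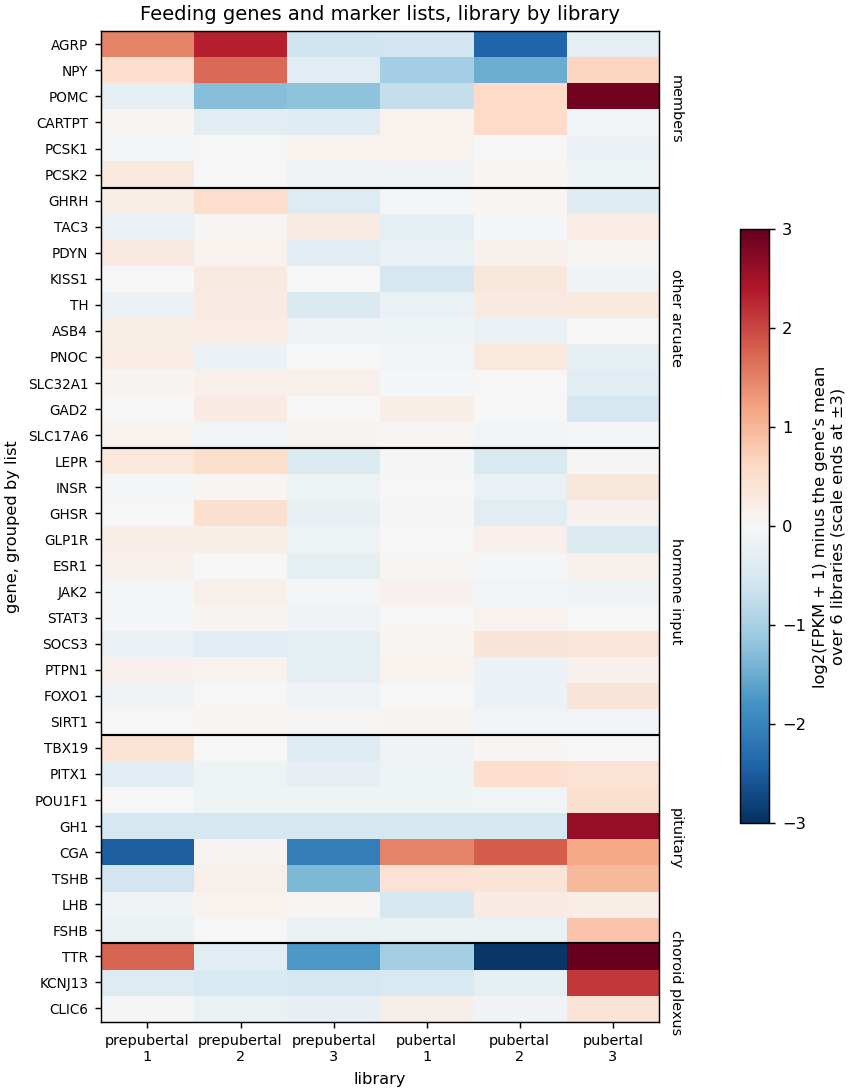
log2(FPKM + 1) minus the mean of each gene over the 6 libraries (red above, blue below, scale ends at ±3), for the 6 genes and for the tested genes of 4 lists, apart from 1 pituitary marker that is not shown. AGRP and NPY are red in prepubertal replicates 1 and 2, where LEPR is also above its mean. NPY is above its mean in pubertal replicate 3 as well. POMC is red in pubertal replicate 3 together with GH1, KCNJ13 and TTR.

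Markers of other tissues were also high in pubertal replicate 3, the library with the most POMC. GH1, the growth hormone gene of pituitary somatotrophs, was at 7.79 FPKM there and listed at 0 in the other 5 libraries, and POU1F1, the factor of somatotrophs, lactotrophs and thyrotrophs, was at 0.539 FPKM there and at no more than 0.0821 FPKM elsewhere. TBX19, the factor of POMC-producing pituitary cells, was at 0.545 FPKM in that library, within the range of 0.163 to 1.06 FPKM of the others, and PAX7, the factor of melanotrophs, was listed at 0. The 11 matched pituitary markers summed to 61.0, 74.9 and 64.2 FPKM across the pubertal libraries and to 12.8, 25.4 and 11.8 FPKM across the prepubertal ones. CGA, the common subunit of the glycoprotein hormones, made up most of each pubertal sum. The choroid plexus markers TTR (309.0 FPKM) and KCNJ13 (14.4 FPKM) were also highest in pubertal replicate 3, against at most 53.4 and 1.86 FPKM in the others. The part of pituitary or choroid plexus tissue in the level of POMC was not tested. Without that library POMC was at 34.4 and 85.1 FPKM in pubertal goats.

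Whether other genes of the feeding pathway, and markers of other sites and cell types, differed between the stages was tested with limma. These genes were not used to choose the 6, but their lists were set with earlier results of these data known. The p-values thus do not come from lists drawn blind to the data. Of 107 genes on 15 lists, 96 were matched and 92 had a mean of at least 0.1 FPKM. None of the 92 passed 0.05 after adjustment in limma, and of all 16397 genes tested 0% did. Before adjustment 7 of the 92 passed 0.05 in limma, 5 higher and 2 lower in pubertal goats. That share is to be read against 5.16% of all genes tested. Of these 7, PCSK6, SOCS3 and SLC32A1 were on the lists of convertases, hormone input and arcuate genes. CGA, TSHB, PITX1 and PPP1R17 were markers of the pituitary or of other nuclei. The lowest adjusted p of the 92 was 0.639 in limma. The median difference was -0.01 over the 92 genes and 0.00 over all genes tested.

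**Figure D5:**
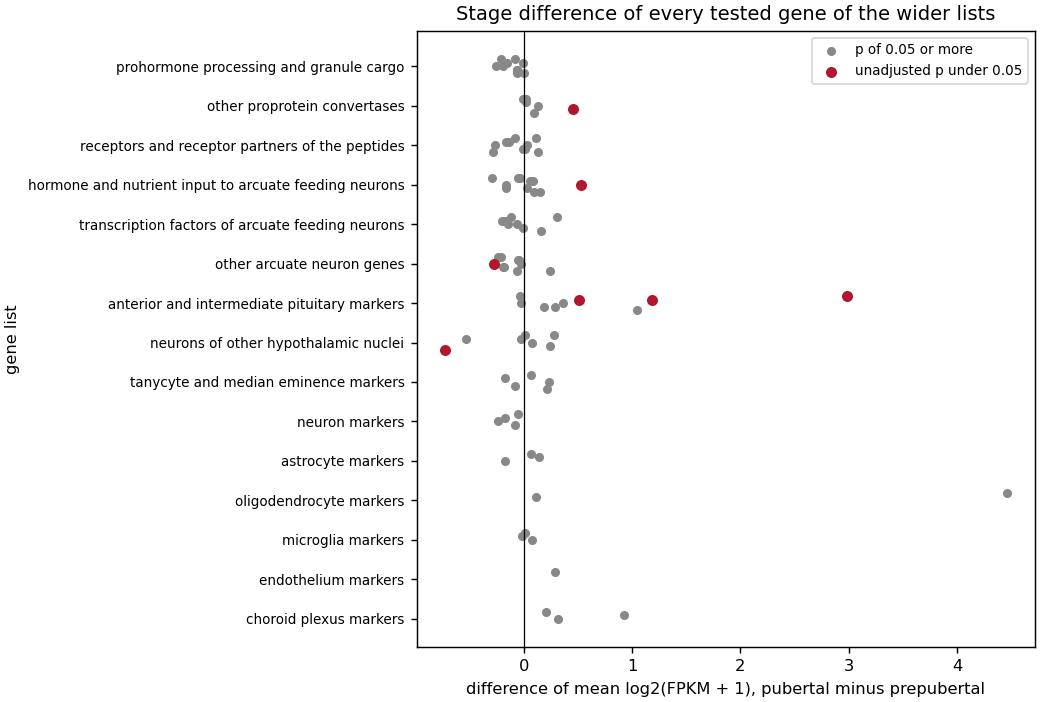
Difference of mean log2(FPKM + 1) between pubertal and prepubertal goats for each tested gene of the 15 lists, 1 point per gene. Red points are the 7 genes that passed 0.05 before adjustment in limma, and 0 passed it after adjustment. Most genes lie close to 0, and the gene at 4.46 is MBP, which was listed at 0 in prepubertal replicate 1.

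Genes that act with PCSK1 and PCSK2 in secretory granules differed widely in level. PCSK1N, the inhibitor of PCSK1, lay between 532 and 787 FPKM, SCG5, the chaperone of PCSK2, between 405 and 537 FPKM, CPE, which trims basic residues after the cut, between 405 and 508 FPKM, and PAM, which amidates peptides, between 224 and 244 FPKM. PCSK1 and PCSK2 were below each of these 4 in every library. VGF, a granule protein, had 28.9 to 38.3 FPKM and PRCP, which inactivates α-MSH, 21.0 to 25.0 FPKM, close to the levels of PCSK1 and PCSK2. Of the 10 tested genes on this list 0 had an unadjusted p-value under 0.05, and their median difference was -0.07. Among 6 other proprotein convertases, PCSK6 measured 14.4, 11.1 and 12.5 FPKM across the pubertal libraries and 10.4, 8.45 and 8.01 FPKM across the prepubertal ones. Its stages did not overlap, with a difference of 0.45 (standard error 0.14) and an adjusted p of 0.795 in limma. FURIN, the convertase of the constitutive pathway, had 6.07 to 8.26 FPKM.

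The receptors through which the peptides act were low compared with their ligands. MC4R, a melanocortin receptor that AGRP blocks, had 1.53 to 2.20 FPKM. MC3R, a melanocortin receptor that also serves on arcuate neurons, had 0.903 to 2.88 FPKM. Of the NPY receptors, NPY1R had 6.61 to 10.7 FPKM, NPY5R 4.62 to 6.49 FPKM and NPY2R 2.60 to 4.36 FPKM. MRAP2, a partner of MC4R, had 13.6 to 20.7 FPKM, and OPRM1, the receptor of β-endorphin, 4.2 to 5.4 FPKM. Of the 10 tested genes on this list 0 had an unadjusted p-value under 0.05, and the median difference was -0.04, with a range from -0.29 to 0.13.

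Among 11 genes of hormone and nutrient input, SOCS3, a feedback inhibitor of leptin receptor signalling, measured 1.32, 1.92 and 1.87 FPKM across the pubertal libraries and 0.952, 0.806 and 0.827 FPKM across the prepubertal ones. Its stages did not overlap, with a difference of 0.53 (standard error 0.13), but its adjusted p was 0.733 in limma. STAT3, which carries the leptin signal, had 30.7 to 35.6 FPKM and ESR1, the oestrogen receptor, 3.31 to 4.69 FPKM. Of the 8 tested transcription factors of these neurons 0 had an unadjusted p-value under 0.05, with TBX3 at 3.08 to 4.79 FPKM and ISL1 at 6.6 to 9.77 FPKM. BSX, which activates AGRP and NPY, measured 0.246, 0.539 and 1.03 FPKM across the pubertal libraries and 0.0932, 0.158 and 0.611 FPKM across the prepubertal ones, and overlapped. Among 10 other arcuate neuron genes, SLC32A1, the vesicular transporter of GABA, had a pubertal mean of 13.6 ± 1.84 FPKM and a prepubertal mean of 16.6 ± 0.489 FPKM (SD, n = 3 each), a difference of -0.27 (standard error 0.11, adjusted p = 0.958 in limma).

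The remaining genes with an unadjusted p-value under 0.05 were markers of other sites. CGA measured 50.1, 62.5 and 39.4 FPKM across the pubertal libraries and 2.24, 18.0 and 3.32 FPKM across the prepubertal ones, a difference of 2.98 (standard error 0.58, adjusted p = 0.639 in limma). Without prepubertal replicate 2 it was the only gene of the lists past the threshold (adjusted p = 0.00789 in limma, with 0.00789 to 1 over all alternatives). The difference was 1.19 for TSHB (adjusted p = 0.795 in limma) and 0.51 for PITX1 (adjusted p = 0.873 in limma), both listed at 0 in 1 prepubertal library. With a pseudocount of 0.1 the differences of these low genes were 2.44 and 1.82, and that of SOCS3 was 0.89. PPP1R17, a marker of the dorsomedial nucleus, had a pubertal mean of 20.0 ± 4.34 FPKM and a prepubertal mean of 33.2 ± 1.55 FPKM (SD, n = 3 each), a difference of -0.72 (adjusted p = 0.671 in limma). The 4 neuron markers had a median difference of -0.13, and those of astrocytes and microglia 0.07 and 0.02.

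The detected genes nearest to AGRP and POMC in the RefSeq gene table had narrower ranges than these 2 genes. EFR3B, next to POMC, had 24.3 to 30.0 FPKM, and LOC102191146, on the other side of POMC, was listed at 0 in every library. ATP6V0D1, beyond FAM65A, had 164 to 215 FPKM, and CTCF, on the other side of AGRP, 24.8 to 29.1 FPKM. The study places the lncRNA XLOC_369349 close to POMC. Its transcript of 540 nt, TCONS_00794838, is shown by its first 200 bases, 5′ to 3′ as deposited and without capitals, since it is the transcript that the study sets beside POMC.

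TCONS_00794838: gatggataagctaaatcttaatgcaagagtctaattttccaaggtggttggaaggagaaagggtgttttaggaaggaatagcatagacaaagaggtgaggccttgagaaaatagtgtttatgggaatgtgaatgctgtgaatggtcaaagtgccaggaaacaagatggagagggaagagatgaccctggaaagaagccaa

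This lncRNA measured 1.11, 0.284 and 0.771 FPKM across the pubertal libraries and 0.299 FPKM in prepubertal replicate 2, and the other prepubertal libraries list it at 0. Prepubertal replicate 2 lay above pubertal replicate 2, so the stages overlapped. The difference was 0.63 (standard error 0.25) with an adjusted p of 0.943 in limma over 2925 lncRNA transcripts. Its unadjusted p-value was 0.0419, and 3.52% of the lncRNA transcripts had one under 0.05. It was above 0.05 in 5 of 12 alternatives, namely 0.092 with a replicate block, 0.0914 without pubertal replicate 1, 0.0948 without pubertal replicate 3, 0.119 without prepubertal replicate 1 and 0.123 without prepubertal replicate 3 (limma). With a pseudocount of 0.1 in place of 1 the difference was 2.22, as the transcript is low and listed at 0 in 2 libraries. Over the 6 libraries its r with POMC was 0.39 and its rho 0.14, and its highest value was not in the library with the most POMC.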

How the data were processed

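The authors mapped paired-end reads with TopHat, built transcripts by means of Scripture and Cufflinks (2.1.1 in the submitters' processing notes), and deposited FPKM values per transcript and library. The genome build is not given in the sources used here. The deposited comparison table also holds the authors' Cuffdiff (2.1.1) group FPKM, folds, p-values and q-values. It was used only to assign transcripts to genes and for transcript lengths.

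FPKM was summed by gene. A table of RefSeq genes (ARS1.2), which held 19083 of the 20225 genes (94.4%), gave symbols and gene order only. Stages were compared with limma 3.58.1 in R 4.3.3 (moderated by eBayes along a mean trend, both sides) applied to log2(FPKM + 1) over all genes, or all lncRNA transcripts, whose mean FPKM reached 0.1. P-values were adjusted by Benjamini-Hochberg and called under 0.05. The fit was tested on simulated data. A pseudocount of 1 understates changes of low genes. All else ran in Python 3.11.15 with matplotlib 3.10.9, scipy 1.17.1, pandas 2.3.3 and numpy 2.4.6. An exact permutation test of 3 against 3 libraries cannot give a p under 0.1, and none was run.

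The members and gene lists were chosen with earlier results of these data known. Named were the 6 genes, list genes with an unadjusted p under 0.05, levels of listed receptors, processing enzymes and markers, and the 3 genes most alike to each of AGRP, NPY, POMC and CARTPT by Pearson r. Further list genes named for their r with AGRP or for marker levels, and the genes that neighbour the 6, were picked with their values in view. The alternatives were quantile normalization, centring on library medians, a pseudocount of 0.1, a minimum mean of 1 FPKM or none, limma without a trend, the most abundant transcript per gene, the replicate number as a block, FPKM as deposited or with stage means subtracted for correlations, and leaving out each library. The 11 listed symbols that matched no gene were not analysed here, and single values of some listed genes are not reported here.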

Additional observations from a re-analysis of the deposited data

How the results depend on the processing

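For the 6 genes, their ratios and main correlations, the list counts and XLOC_369349, 170 of 176 recomputed values were counted as unchanged. For the single list genes and the genes most alike, 189 of 217 were. Differences and ratios had to stay within the spread of the goats, and tested genes on the same side of the threshold. List counts had to keep a similar size, and correlations to stay within a spread from leaving out libraries. For NPY and POMC that spread was 0.69, so an r from -0.62 to 0.56 counted as unchanged throughout. Some alternatives could not move a value, such as the replicate block for a difference or centring for a ratio. Tested genes with an adjusted p far above 0.05 could hardly count as changed. For XLOC_369349 the adjusted p ran from 0.733 to 0.965 in limma, and a difference from 0.47 to 2.22 counted as unchanged. The log2 difference ran from -2.98 to -1.49 for AGRP, from -1.88 to -0.72 for NPY, from 0.84 to 2.64 for POMC, from 0.21 to 0.54 for CARTPT and from -0.20 to -0.01 for PCSK2, while that of PCSK1 ran from -0.10 to 0.04 and so changed sign. Leaving out each library in turn gave between 0 and 1 list genes with an adjusted p under 0.05, and between 5 and 14 with an unadjusted one, the 14 without pubertal replicate 1 and 11 without prepubertal replicate 3. The cause was not tested. The Pearson r of AGRP and NPY was 0.773 with the most abundant transcript per gene, which leaves out the second NPY transcript. That of AGRP and POMC was 0.21 with the stage means subtracted. That of POMC and PCSK1 lay between -0.894 and -0.417 when each library was left out. Same-numbered libraries of the stages shared no deviations (correlations of -0.0246, -0.101 and 0.0752), so the numbers were not taken as pairs, and with a replicate block 7 list genes had an unadjusted p under 0.05, 6 higher and 1 lower. Without read counts no counting error can be given, which limits BSX, ASB4, GH1 and XLOC_369349 most.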

Other observations

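PMCH, which encodes the feeding peptide melanin-concentrating hormone of the lateral hypothalamus, was more abundant than the arcuate peptides in every library. Its level also differed between goats within a stage. It measured 2173, 951 and 673 FPKM across pubertal replicates 1, 2 and 3, and 2050, 938 and 2173 FPKM across the prepubertal ones. The gap was smallest in pubertal replicate 3, where POMC was at 428.6 FPKM. The stages overlapped for PMCH, and the libraries with the most AGRP and NPY or the most POMC were not those with the most PMCH. VIM, which tanycytes and other glia express, was at 468.8 FPKM in pubertal replicate 3, the library with the most POMC and TTR, whereas the other libraries ranged from 175.9 to 302.8 FPKM.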
